A study of Mus musculus with 12 samples.

Results

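The genes described here encode 8 small leucine-rich proteoglycans, decorin (Dcn), biglycan (Bgn), asporin (Aspn), fibromodulin (Fmod), lumican (Lum), prolargin (Prelp), osteomodulin (Omd) and osteoglycin (Ogn), and 2 fibulins of elastic fibres, Fbln2 and Fbln5. They are 10 of the 18194 genes that had a probe of their own on the array. Each was read from the probe of highest mean signal over the 12 arrays among the 23 probes paired with 1 of these genes alone, so the probes were chosen by their mean signal, which is not a result. The genes were named with earlier results of these data known, which included lower signals of Fmod, Omd and Fbln5 in the injured cord of aged mice. For these 3 genes that comparison, and the difference between the ages in the response to injury, are therefore described without a test and left out of the counts of calls.

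Expression was measured in spinal cord at the Th9 level of female C57BL/6 mice (C57BL/6J in the study's methods), in 4 groups of 3 arrays each. Aged injured and young injured mice (15 to 18 and 2 to 3 months old) were examined 9 days after a contusion spinal cord injury (SCI) at Th9, and aged intact and young intact mice of the same age ranges had no injury. The labels name no transgene, graft or other agent for any group. A segment of cord holds neurons, glia, meninges and vessels, so fewer cells of a type and less RNA per cell cannot be told apart in any value below. The signals were those of the MAS 5.0 algorithm, which scales each array, here to a trimmed mean of 100, and have no unit. Because each probe has its own brightness, levels were compared between groups for a given gene, and genes were not ranked by level. Sums over marker genes were compared between groups only, and bright probes weigh most in them.

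Small leucine-rich proteoglycans are secreted proteins whose leucine-rich repeats bind collagen and set how fibrils are spaced and how thick they grow. Class I members (decorin, biglycan and asporin) share a gene structure, and decorin and biglycan carry chondroitin or dermatan sulfate chains. Class II members (fibromodulin, lumican, prolargin and osteomodulin) include carriers of keratan sulfate, and osteoglycin belongs to class III. Several of these proteins bind TGF-beta. Fibulin-5 guides elastin onto microfibrils during the assembly of elastic fibres, and fibulin-2 binds fibrillin, elastin and basement membrane proteins. In the nervous system such genes are known mainly from the meninges, from fibroblasts around vessels and from the fibrous scar that forms after SCI.

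Several of the genes are neighbours in the mouse genome (RefSeq annotation, build GRCm38.p6). On chromosome 13 Ecm2, Aspn, Omd and Ogn follow each other with no other protein-coding gene between them, on chromosome 1 Optc, Prelp and Fmod do so, and on chromosome 10 Dcn, Lum, Kera and Epyc. Bgn lies on chromosome X, Fbln2 on chromosome 6 and Fbln5 on chromosome 12. Promoter sequences from RefSeq, each of 250 bases before and 50 bases after the annotated start, were held for 8 of the 10 genes. Fbln5 had 2 annotated starts, of which the first listed is shown. The promoters of the 5 genes whose signals were lower in aged than in young injured cord are given, with that of Bgn, which responded to injury at both ages, for contrast. Each runs 5′ to 3′ along the strand of its gene, in lower case, with capitals at matches of 5 short promoter motifs, searched on both strands and spelled out after the sequences.
Fmod promoter, chr1:134037004-134037303, plus strand: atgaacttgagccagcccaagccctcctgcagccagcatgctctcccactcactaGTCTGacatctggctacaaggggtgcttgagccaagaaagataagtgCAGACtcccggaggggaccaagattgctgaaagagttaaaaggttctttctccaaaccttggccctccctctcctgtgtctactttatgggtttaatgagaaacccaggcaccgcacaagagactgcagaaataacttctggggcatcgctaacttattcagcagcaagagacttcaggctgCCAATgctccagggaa
Prelp promoter, chr1:133921352-133921651, minus strand: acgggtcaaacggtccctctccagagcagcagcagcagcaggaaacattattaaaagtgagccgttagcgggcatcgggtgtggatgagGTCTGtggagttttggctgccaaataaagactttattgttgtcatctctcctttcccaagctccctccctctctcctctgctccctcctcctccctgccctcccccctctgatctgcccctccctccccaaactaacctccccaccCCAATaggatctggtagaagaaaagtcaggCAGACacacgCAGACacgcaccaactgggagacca
Omd promoter, chr13:49582212-49582511, plus strand: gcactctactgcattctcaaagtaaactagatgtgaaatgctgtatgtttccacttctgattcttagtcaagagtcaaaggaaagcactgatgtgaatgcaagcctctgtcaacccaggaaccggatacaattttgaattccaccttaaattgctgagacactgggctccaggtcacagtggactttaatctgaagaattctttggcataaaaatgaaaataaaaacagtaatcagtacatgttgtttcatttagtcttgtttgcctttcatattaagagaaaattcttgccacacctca
Ogn promoter, chr13:49607765-49608064, plus strand: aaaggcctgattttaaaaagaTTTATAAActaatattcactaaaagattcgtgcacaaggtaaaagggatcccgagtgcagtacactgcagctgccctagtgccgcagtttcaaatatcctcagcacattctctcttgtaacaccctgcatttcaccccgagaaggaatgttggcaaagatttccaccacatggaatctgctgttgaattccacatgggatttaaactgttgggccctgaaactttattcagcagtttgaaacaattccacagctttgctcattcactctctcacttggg
Fbln5 promoter, chr12:101819070-101819369, minus strand: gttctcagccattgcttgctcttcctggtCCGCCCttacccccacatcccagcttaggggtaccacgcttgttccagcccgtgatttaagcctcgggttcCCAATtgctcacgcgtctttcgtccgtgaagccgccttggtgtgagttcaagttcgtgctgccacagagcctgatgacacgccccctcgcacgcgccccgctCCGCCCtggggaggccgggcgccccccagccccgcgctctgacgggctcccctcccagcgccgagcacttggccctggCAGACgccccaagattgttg
Bgn promoter, chrX:73483351-73483650, plus strand: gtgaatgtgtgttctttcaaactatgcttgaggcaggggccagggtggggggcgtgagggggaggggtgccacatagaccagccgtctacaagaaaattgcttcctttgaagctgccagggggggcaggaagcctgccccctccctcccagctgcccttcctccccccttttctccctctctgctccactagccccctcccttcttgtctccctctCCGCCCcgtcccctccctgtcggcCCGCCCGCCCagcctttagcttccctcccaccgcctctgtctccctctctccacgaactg
These 6 promoters did not share a motif. The Smad box CAGAC, found in 49.6% of all 32851 promoters of this length, occurred 2 times at Fmod, 3 times at Prelp and 1 time at Fbln5, and was not found in the windows of Omd, Ogn and Bgn. The GC box GGGCGG, held by 35.7% of all promoters, occurred 3 times at Bgn and 2 times at Fbln5. The box CCAAT, held by 37.4% of all promoters, occurred 1 time each at Fmod, Prelp and Fbln5. The core promoter element TATAAA, held by 13.6% of all promoters, occurred 2 times at Ogn, with the matches overlapping on opposite strands. The AP-1 site TGANTCA, held by 7.81% of all promoters, was found in none of the 6 windows. The window of Omd held none of the 5 motifs. The share of G and C was 37.7% at Omd and 42.3% at Ogn, against 65.7% at Fbln5 and 63.7% at Bgn and a median of 52.7% over all promoters. The window at the second start of Fbln5 differed, with 48.7% G and C, 2 matches of CAGAC and none of the other 4 motifs. A match of letters is a description and not a binding site.

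All 10 genes passed the filter on low values, a group mean above 50 in at least 1 of the 4 groups, which left 10511 genes to test. Of the 10 genes, 9 had means above 50 in every group, and Fbln2 passed through the aged injured group alone, so its values are given without a test and it is left out of the counts. Between 35.0% and 36.7% of the probes of an array read above 50. Over the log2 signals of the genes tested, the mean distance between arrays of a group was 57.9 in aged injured, 31.4 in young injured, 26.2 in aged intact and 25.4 in young intact cord. Aged injured replicate 1 had the lowest summed signal of 4 neuron markers, at 883 against 4215 and 6398 in the other aged injured arrays and 4442 to 6731 in young injured cord. Of 4 astrocyte markers 2 (Gfap and Aqp4) were lower in the injured cord of aged mice, with sums of 5432 to 9276 in aged and 10965 to 12447 in young mice, and of 4 markers of microglia and macrophages 2 (Cd68 and Itgam) were higher, with sums of 5030 to 6357 in aged and 3464 to 4578 in young mice. The part of these shifts in the results below was not tested.

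After SCI, Fmod, Omd, Ogn, Prelp and Fbln5 had lower signals in aged injured than in young injured cord, without overlap of the arrays. Of these, Fmod, Omd and Fbln5 were known beforehand as lower. The signals of Dcn, Bgn, Lum, Fbln2 and Aspn overlapped. Of the 6 genes tested here, 2 (Ogn and Prelp) passed as lower in aged injured cord and 0 as higher (limma with Benjamini-Hochberg adjustment over 10511 genes), beside 4.60% of all genes called lower. The arrays of the ages did not overlap for the same 2 of the 6. This is near the share of all genes without overlap in either direction, 28.1%. Under the cutoffs of the study, a signal above 50 and a ratio of means above 2, 2 of the 6 were lower (0.580% of all genes), of which Ogn was called by limma and Aspn was not. The median log2 fold change over the 10 genes was -0.71, and over all genes tested it was -0.04. The median of the 10 includes the 3 genes known beforehand and Fbln2. Without aged injured replicate 1, limma called 2 of the 6 genes lower. When the spread was taken from the 6 injured arrays alone, 0 of all genes were called in this comparison, and the adjusted p was 0.105 for Ogn and 0.0956 for Prelp.

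In young mice SCI was followed by higher signals of 8 of the 9 genes tested, with Aspn not called, against 34.0% of all genes called higher. In aged mice 5 of the 9 were higher, against 35.6% of all genes, and 2 of the 9 (Bgn and Lum) under the study's cutoffs (15.5% of all genes). The 5 genes higher at both ages were Dcn, Bgn, Lum, Prelp and Fbln5 (30.1% of all genes were called higher at both). Fmod, Ogn and Omd were called higher in young mice and not called in aged mice, a pattern of 3.78% of all genes. Fmod and Omd were known beforehand as lower in aged injured cord, which favours this pattern, so for them the share is no background. These genes and Fbln5, known likewise, are also among the 9 counted after injury and in the medians below. The median log2 fold change of injured over intact cord over the 10 genes was 0.51 in aged mice (all genes -0.04) and 1.21 in young mice (all genes -0.005). Both medians include Fbln2, whose fitted values lie above them and are no folds, as its intact means were under 50. The difference between the aged and the young response was itself tested for 6 genes. Limma called 0 of them, against 0.438% of all genes, and 2 (Ogn and Prelp) had an unadjusted p under 0.05. In intact cord 0 of the 9 genes were called between the ages, against 0.818% of all genes, and 1 (Bgn) had an unadjusted p under 0.05.

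**Figure D1:**
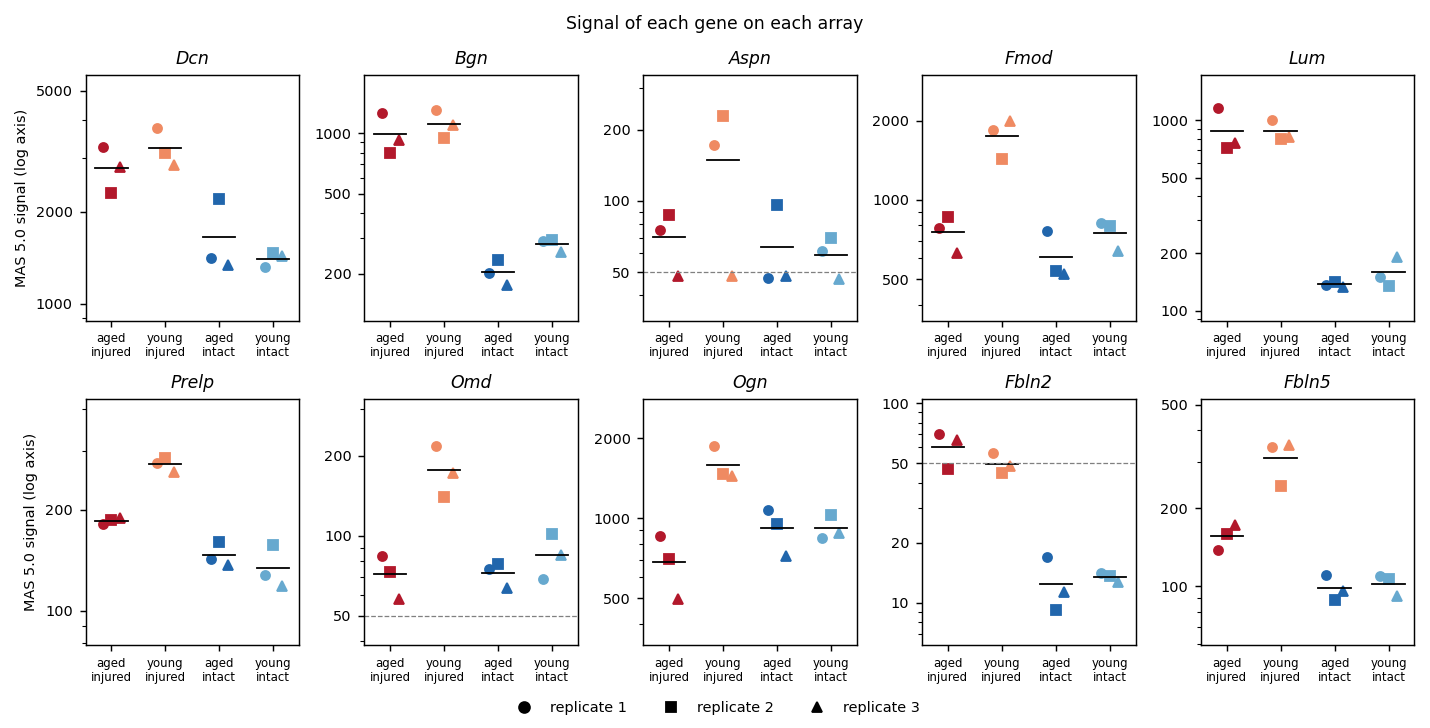
MAS 5.0 signal of the 10 genes on each of the 12 arrays (log axis, own scale in each panel), with a symbol for each replicate, a black line at the mean of each group of 3 and a dashed line at 50. The aged injured arrays lie below all young injured arrays for Fmod, Prelp, Omd, Ogn and Fbln5 and overlap them for the other genes.

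Among the class I genes, Dcn and Bgn responded to SCI at both ages. Dcn, whose product decorates collagen fibrils and binds TGF-beta, had signals of 3269.6, 2310.0 and 2797 in aged injured cord, 3761, 3115 and 2857 in young injured cord, 1416, 2207 and 1339.7 in aged intact cord and 1320.2, 1464 and 1434 in young intact cord. Every injured array lay above every intact array, and the injured groups overlapped. Its log2 fold change after injury was 0.78 in aged mice (standard error 0.18, adjusted p = 0.00263 from limma) and 1.20 in young mice (standard error 0.18, adjusted p = 0.000212). Between aged and young injured cord it was -0.22, with a 95% interval of -0.63 to 0.19 (adjusted p = 0.415).

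Bgn, a close relative of decorin, had signals of 1261, 796 and 926 in aged injured cord, 1304, 943 and 1100.1 in young injured cord, 200.4, 234 and 175 in aged intact cord and 291, 294 and 256 in young intact cord. The injured arrays were far above the intact ones at both ages. The log2 fold change after injury was 2.27 in aged mice (standard error 0.17, adjusted p = 1.03e-06 from limma), a 4.83-fold higher signal, and 1.98 in young mice (adjusted p = 3.71e-06), a 3.95-fold higher signal. Aged and young injured cord differed by -0.18 (95% interval -0.56 to 0.20, adjusted p = 0.477). In intact cord all 3 aged arrays lay below the young ones (the arrays of the ages did not overlap for 25.5% of all genes), with a log2 fold change of -0.47 (95% interval -0.85 to -0.09), which limma did not call (adjusted p = 0.348). With the spread taken from the intact arrays alone this difference was called (adjusted p = 0.0240). The other probes of Bgn gave log2 fold changes of -0.33 and -0.44 in intact cord. In each of them the aged and young intact arrays overlapped.

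Aspn, whose product binds collagen and TGF-beta, was decided by 1 array. Its signals were 75.4, 86.8 and 48.3 in aged injured cord, 172, 229 and 48.0 in young injured cord, 47.2, 96.4 and 48.3 in aged intact cord and 61.6, 69.4 and 46.7 in young intact cord. The signals of replicate 3 were 46.7 to 48.3 in all groups, and young injured replicates 1 and 2 stood above all other arrays. The log2 fold change after injury was 0.17 in aged mice (95% interval -0.95 to 1.29, adjusted p = 0.765) and 1.08 in young mice (-0.04 to 2.20, adjusted p = 0.0792), and between aged and young injured cord it was -0.86 (-1.98 to 0.26, adjusted p = 0.263, limma for all 3). Without young injured replicate 3 the response in young mice was 1.76 (adjusted p = 0.00192) and the difference between the injured groups -1.54 (adjusted p = 0.0443).

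Among the class II genes, Lum and Fmod behaved differently. Lum, which encodes a keratan sulfate proteoglycan of collagen fibrils, had signals of 1161, 716 and 763 in aged injured cord, 1010.4, 799 and 821 in young injured cord, 137, 142 and 133 in aged intact cord and 149.6, 135 and 192 in young intact cord. The injured groups overlapped and both lay far above the intact ones. The log2 fold change after injury was 2.65 in aged mice (standard error 0.18, adjusted p = 4.72e-07 from limma), a 6.26-fold higher signal, and 2.47 in young mice (adjusted p = 1.05e-06), a 5.54-fold higher signal. Aged and young injured cord differed by -0.02 on the log2 scale, with a 95% interval of -0.42 to 0.38 (adjusted p = 0.942).

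Fmod, whose product binds fibrillar collagen at sites shared with lumican and steers collagen crosslinking, had signals of 780.0, 863 and 628 in aged injured cord, 1836, 1425 and 1996 in young injured cord, 765, 535 and 522 in aged intact cord and 817, 799 and 637 in young intact cord. The young injured arrays stood above all other arrays, and the aged injured arrays overlapped the intact ones. The mean was 757 ± 119 in aged injured and 1753 ± 295 in young injured cord (SD, n = 3 each). The log2 difference was -1.21, or a 2.31-fold lower signal in aged mice, given without a test. After injury Fmod rose in young mice by 1.22 (standard error 0.18, adjusted p = 0.000175 from limma), whereas in aged mice its log2 fold change was 0.33 (95% interval -0.07 to 0.73, adjusted p = 0.122). That response was called without aged intact replicate 1 (0.51, adjusted p = 0.0234). The response in aged mice less that in young mice was -0.89, also without a test.

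Fmod had 6 probes of its own, all with a group mean above 50. In each of them the aged injured arrays lay below all young injured arrays, with log2 differences of -1.01 to -1.85. Of these, 5 carry the suffix _x in their names, which marks probes that may also bind other transcripts. The probe without it had mean signals of 158 in aged injured, 411 in young injured, 137 in aged intact and 147 in young intact cord, a difference of -1.34 between the injured groups. These probes measure the same RNA samples and are not further replicates.

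Prelp and Omd also had lower signals in aged injured cord. Prelp, whose product links basement membrane heparan sulfate to collagen, had signals of 181, 187 and 189 in aged injured cord, 276, 285 and 259 in young injured cord, 143, 159.8 and 137 in aged intact cord and 128, 158 and 118 in young intact cord. The 4 groups did not overlap except for the intact ones. Aged injured cord was lower, at a log2 difference of -0.56 (standard error 0.10, adjusted p = 0.0152 from limma), a 1.47-fold lower signal, and leaving out young injured replicate 2 ended the call (adjusted p = 0.0505). Prelp rose after injury at both ages, by 0.34 in aged mice (standard error 0.10, adjusted p = 0.0113) and by 1.03 in young mice (standard error 0.10, adjusted p = 1.11e-05). The call in aged mice ended when the arrays were scaled to equal medians (0.23, adjusted p = 0.0556). The difference between the 2 responses was -0.69 (95% interval -1.01 to -0.36) and did not pass (adjusted p = 0.0811), but did so without aged injured replicate 2 (adjusted p = 0.0415).

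Omd, a keratan sulfate proteoglycan best known from bone matrix, had signals of 84.0, 72.7 and 57.9 in aged injured cord, 218, 139.7 and 173 in young injured cord, 75.2, 78.0 and 63.5 in aged intact cord and 68.5, 102 and 84.5 in young intact cord. The young injured arrays were above all others, and the other 3 groups overlapped, close to the cutoff of 50. The means were 71.5 ± 13.1 in aged injured and 177 ± 39.2 in young injured cord (SD, n = 3 each). The log2 difference was -1.30, or a 2.46-fold lower signal in aged mice, given without a test. Omd rose after injury in young mice by 1.05 (standard error 0.20, adjusted p = 0.000781 from limma), and in aged mice the value was -0.03 (95% interval -0.46 to 0.41, adjusted p = 0.914). The response in aged mice less that in young mice was -1.08, also without a test.

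Ogn, the class III gene and a direct neighbour of Omd, showed the same order of groups. Osteoglycin is a small proteoglycan of connective tissues that takes part in collagen fibril growth. Its signals were 858, 700.2 and 499 in aged injured cord, 1867, 1466 and 1442 in young injured cord, 1075, 950.2 and 722 in aged intact cord and 843, 1031 and 877 in young intact cord. The young injured arrays were the highest of all, and the aged injured arrays reached down to the lowest value of the gene. Aged injured cord was lower than young injured cord, at a log2 difference of -1.24 (standard error 0.20, adjusted p = 0.00919 from limma), a 2.36-fold lower signal, and the second probe of Ogn gave -1.43. Ogn rose after injury in young mice by 0.79 (standard error 0.20, adjusted p = 0.00484). In aged mice the value was -0.43 (95% interval -0.87 to 0.007, adjusted p = 0.0687), which was called lower under 4 alternatives, among them without aged injured replicate 1 (-0.61, adjusted p = 0.00896). The difference between the responses, -1.22 (95% interval -1.84 to -0.60), did not pass (adjusted p = 0.0950). It did so without aged injured replicate 1 (adjusted p = 0.0225) or 2 (adjusted p = 0.0464).

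**Figure D2:**
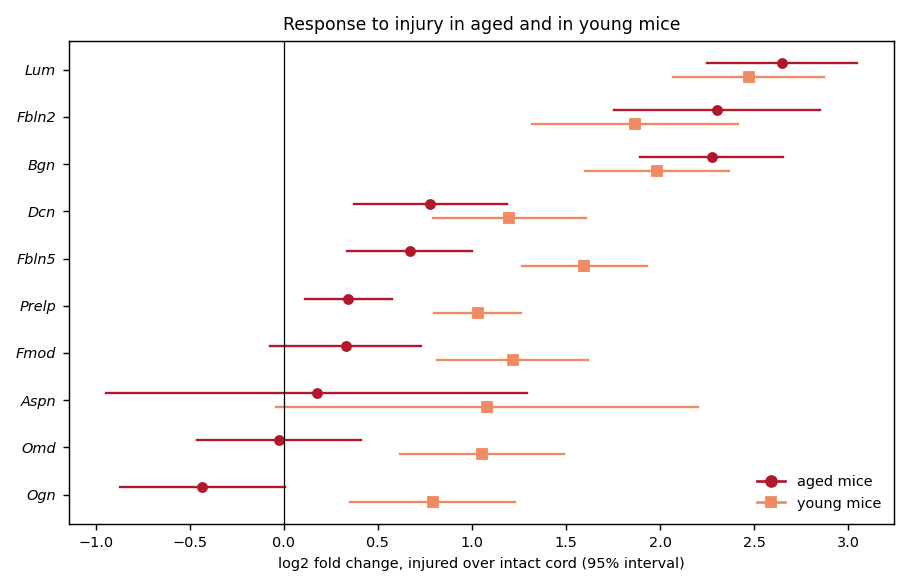
Fitted log2 fold change of injured over intact cord for the 10 genes, with 95% intervals, in aged mice (circles) above young mice (squares). Lum and Bgn lie at 1.98 to 2.65 at both ages, the intact means of Fbln2 were under 50, so that its fitted values are no folds, and the intervals of Fmod, Aspn, Omd and Ogn include 0 in aged mice.

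The 2 fibulins differed. Fbln5 had signals of 138, 159.8 and 173 in aged injured cord, 344, 245 and 350.1 in young injured cord, 111, 88.9 and 96.1 in aged intact cord and 109, 106 and 91.5 in young intact cord. The aged injured arrays lay between the young injured and the intact arrays without overlap. The means were 157 ± 17.8 in aged injured and 313 ± 59.3 in young injured cord (SD, n = 3 each). The log2 difference was -0.98, or a 1.98-fold lower signal in aged mice, given without a test. Fbln5 rose after injury at both ages, by 0.67 in aged mice (standard error 0.15, adjusted p = 0.00190 from limma) and by 1.60 in young mice (standard error 0.15, adjusted p = 6.67e-06). The response in aged mice less that in young mice was -0.93, also without a test. The other probe of Fbln5 had mean signals under 2 in every group.

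Fbln2 was close to the cutoff, at 69.7, 46.7 and 65.5 in aged injured cord, 56.2, 44.7 and 48.3 in young injured cord, 16.9, 9.2 and 11.4 in aged intact cord and 14.2, 13.7 and 12.8 in young intact cord. All injured arrays were above all intact ones, and the injured groups overlapped. With the intact mean set to the cutoff of 50, the signal of aged injured cord was at least 1.21-fold that of aged intact cord, and aged injured cord is the group through which the gene passed the filter. Both means of young mice were under 50, so no fold is given. Against young injured cord, with its mean of 49.7 likewise set to 50, the signal of aged injured cord was at least 1.21-fold. This comparison was not tested.

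**Figure D3:**
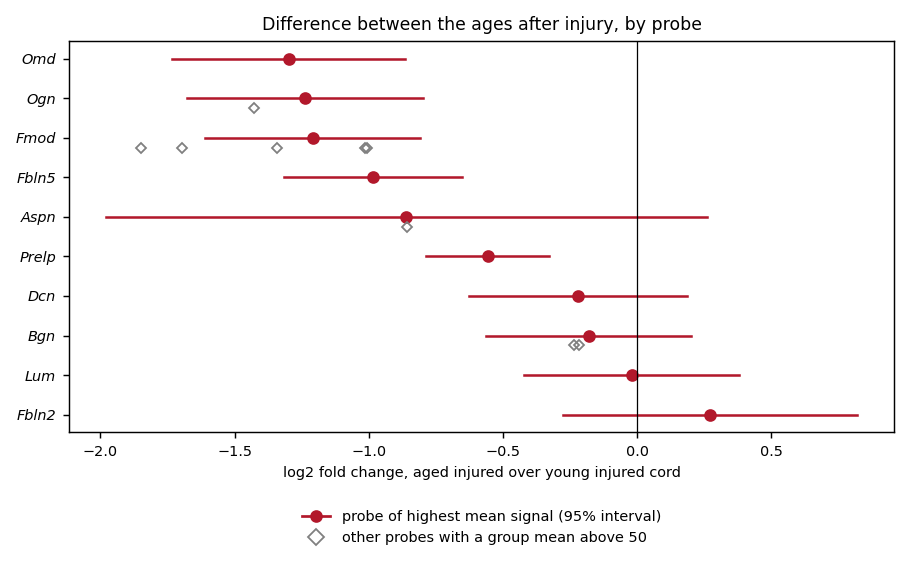
Log2 fold change of aged injured over young injured cord for each gene, from the probe of highest mean signal with its 95% interval (filled circles) and from the 9 other probes with a group mean above 50 (open diamonds). All 9 other probes, of Fmod, Bgn, Ogn and Aspn, lie on the same side of 0 as the probe used. The intervals of Fmod, Omd and Fbln5, known beforehand as lower in this comparison, are no test. Nor is that of Fbln2, which passed the filter through aged injured cord alone.

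The 13 other probes served as a check, and 9 of them had a group mean above 50. Between the ages after injury, and between injured and intact cord of young mice, 9 of the 9 had the same sign as the probe used, and in the other comparisons of groups 8 of the 9. The exceptions were the second probe of Aspn in intact cord (-0.29, against 0.05) and a probe of Fmod in aged mice after injury (-0.08, against 0.33), and neither main value was called. The second probes of Dcn, Prelp, Fbln2 and Fbln5 did not reach 50 in any group, so these genes rest on 1 probe each. When all probes of a gene were averaged, those dim probes included, 1 of the 6 genes tested, Ogn, was called lower in aged injured cord and Prelp was not (adjusted p = 0.343), and the difference of Fbln5 was -0.42 in place of -0.98.

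The other small leucine-rich proteoglycans were mostly dim. Of 9 listed, 7 had a probe of their own and 1, Ecm2, passed the cutoff. Ecm2, the neighbour of Aspn on chromosome 13, encodes a related matrix protein. Its signals were 39.2, 55.8 and 45.1 in aged injured cord, 87.3, 66.0 and 90.5 in young injured cord, 65.5, 60.2 and 62.5 in aged intact cord and 49.9, 65.1 and 47.6 in young intact cord. The aged injured arrays were below all aged intact and young injured arrays. Against young injured cord the signal was at least 1.63-fold lower (adjusted p = 0.0219 from limma), after injury in aged mice at least 1.25-fold lower (adjusted p = 0.0373), and in young mice it rose by 0.58 on the log2 scale (adjusted p = 0.0114). All these signals were near the cutoff of 50.

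Of the other fibulins, 3 passed the cutoff. Fbln1 and Efemp1 (fibulin-3) rose after injury at both ages. Hmcn1 passed through the young injured group alone, at 40.8 ± 3.39 in aged injured, 56.4 ± 11.1 in young injured, 41.4 ± 3.12 in aged intact and 31.8 ± 2.59 in young intact cord (SD, n = 3 each), so its response is given without a test. For Fbln1 the log2 fold change was 2.13 in aged mice (adjusted p = 3.35e-06) and 1.32 in young mice (adjusted p = 0.000138), and for Efemp1 0.64 in aged mice (adjusted p = 0.00500) and 1.57 in young mice (adjusted p = 1.61e-05, limma throughout). Between aged and young injured cord limma called 0 of these 2 genes, with Hmcn1 left out of the count.

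Of 13 genes of elastic fibres and their crosslinking, 11 were called higher after SCI in aged mice and 12 in young mice, but 7 of the 13 had means above 50 in injured groups alone and so passed the cutoff where they were high. Of the other 6, 5 rose in aged and 5 in young mice. Lox, the lysyl oxidase that crosslinks collagen and elastin, had 224 ± 46.8 in aged injured cord, against 31.0 ± 10.9 in aged intact cord, and 325 ± 94.9 in young injured cord, against 63.4 ± 8.47 in young intact cord (SD, n = 3 each). Between aged and young injured cord 0 were higher and 2 lower, beside 4.60% of all genes called lower. Of the 6 that did not pass through injured groups alone, 1 was lower. The median of the 13 was -0.21 (all genes -0.04). It includes Mfap4 and Ltbp4, which passed through young injured cord alone. The 2 lower genes were latent TGF-beta binding proteins, Ltbp3 (376 ± 75.4 in aged and 620.5 ± 89.8 in young mice, log2 fold change -0.73, adjusted p = 0.0229) and Ltbp1 (53.7 ± 4.99 in aged and 81.2 ± 5.17 in young mice, -0.60, adjusted p = 0.0138, limma and SD, n = 3 each). Ltbp1 passed the cutoff through the injured groups alone. Of 7 TGF-beta ligands and receptors, 2 passed through injured groups alone, and of the other 5, 3 rose after injury in aged and 4 in young mice. Of these 5, 1 was lower in aged than in young injured cord, beside 4.60% of all genes (median of the 7 -0.06). This was Tgfbr3, the proteoglycan co-receptor betaglycan, with 246, 252 and 230.0 in aged injured cord and 484, 326 and 356 in young injured cord (log2 fold change -0.66, adjusted p = 0.0379). It rose in young mice (0.78, adjusted p = 0.00195) and was not called in aged mice.

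The fibrillar collagens, which these proteoglycans bind, and the enzymes that build their sugar chains are given beside the set. Of 7 fibrillar collagens, 2 passed through injured groups alone, and the other 5 all rose after injury in aged and in young mice. Of the 7, 0 were called between aged and young injured cord (limma; median log2 fold change 0.03). Col1a2, for example, had 3699.9 ± 464 in aged injured and 3905 ± 603 in young injured cord (SD, n = 3 each, adjusted p = 0.736). In intact cord Col1a2 and Col3a1 were lower in aged mice, with log2 fold changes of -0.96 and -1.27, and Col1a1 was at least 1.57-fold lower (22.6 ± 0.781 in aged intact and 78.6 ± 4.12 in young intact cord, SD, n = 3 each). Of 13 genes of chondroitin and dermatan sulfate synthesis, 3 passed through injured groups alone, and of the other 10, 5 rose and 3 fell after injury in aged mice and 5 rose and 2 fell in young mice. Among them Dse, the epimerase that makes dermatan sulfate, had 260.1 ± 49.3 in aged injured cord, against 50.6 ± 5.43 in aged intact cord. The sulfotransferase gene Chst15 alone of the 13 was lower in aged than in young injured cord, beside a median of 0.05 (Chst15 77.1 ± 7.0 in aged and 109 ± 16.1 in young mice, log2 fold change -0.49, adjusted p = 0.0276). Of all genes 4.60% were called lower there. Of 4 genes of keratan sulfate synthesis, B4galt1 passed through injured groups alone. Of the other 3, 1 rose (B3gnt2) and 1 fell (Chst1) after injury at both ages, and of the 4, 0 were called between the ages after injury (median 0.09).

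**Figure D4:**
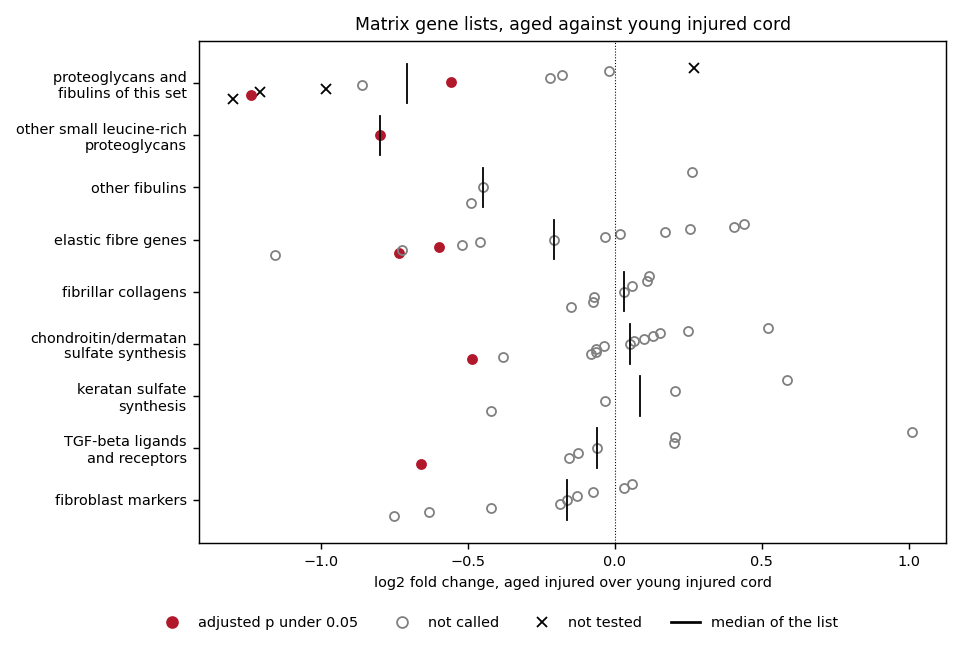
Log2 fold change of aged injured over young injured cord for each tested gene of the set and of the other lists (points, filled where the adjusted p was under 0.05, crosses for the 4 genes of the set that were not tested), with the median of each list as a black line. The 10 genes of the set have a median of -0.71, the fibrillar collagens 0.03 and the fibroblast markers -0.16. The median of the set includes Fmod, Omd and Fbln5, known beforehand as lower in this comparison, and Fbln2, which was not tested. Some of the other lists include genes that passed the cutoff through injured groups alone.

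Markers of meningeal and perivascular fibroblasts, the cells from which most of these proteoglycans are known, were measured beside the set. Of 9 tested, 0 were called between aged and young injured cord by limma, with log2 fold changes of -0.75 to 0.06 and a median of -0.16, and 7 of the 9 were negative. The summed signal of the 10 listed markers was 8399 to 11141 in aged injured cord, 8459 to 12104 in young injured cord, 1603 to 2248 in aged intact cord and 2751 to 3213 in young intact cord. Collagen genes make up most of these sums. For markers of bone and cartilage, tissues in which several of these genes are also expressed, 6 of 6 group means were under 50 in aged injured and 5 of 6 in young injured cord, with sums of 92.1 to 109 and 144 to 181. Skeletal muscle markers were under 50 for 5 of 5 genes in aged injured and 4 of 5 in young injured cord. Their sums were 45.2 to 100.4 in aged injured and 103.4 to 244.3 in young injured cord. The part of any of these cells in the signals of the set was not tested.

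The log2 signals were correlated between the genes over the 12 arrays, as a description of values that share their arrays and the large step between injured and intact cord. Bgn, Lum and Fbln2 were the most alike (r = 0.98 for Bgn and Lum, 0.97 for Lum and Fbln2, 0.96 for Bgn and Fbln2), and Dcn had r = 0.92 with Bgn and with Lum. Fbln5 had r = 0.93 with Prelp and 0.92 with Fmod, and Omd had r = 0.92 with its neighbour Ogn and 0.91 with Fmod. Bgn and Ogn had r = 0.27. Around the group means the highest values were 0.83 for Omd and Ogn and 0.77 for Dcn and Bgn, and Prelp and Fbln5 had -0.04. Outside the set, the gene with the most similar profile was Fgfbp1 for Ogn (r = 0.95), Slc2a12 for Omd (0.96), Ak3 for Fmod (0.96), Cldn1 for Prelp (0.97), Csad for Fbln5 (0.98), Efnb1 for Aspn (0.94), Lbp for Bgn (0.996), Clec4n for Lum (0.995), Coro1b for Fbln2 (0.99) and Rras for Dcn (0.97), each over the 12 arrays and the highest among all other genes tested. Igfbp2 and Colec11 followed for Fmod, Id1 and Ltbp1 for Fbln5 and Id1 and Csf1 for Prelp.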

How the data were processed

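RNA of spinal cord segments from 12 female mice was hybridized to Affymetrix GeneChip mouse genome arrays, 1 array for each mouse. The authors converted the scanned images with the MAS 5.0 algorithm, and the deposited intensities are linear and share a trimmed mean of 100 on each array (the highest and lowest 2% of probes left out). The genome build of the probe design is not given in the sources used here. Of 45101 probes, 34958 had 1 gene in the platform annotation, 932 had several genes and 9211 had no gene. Signals under 1 were set to 1 and log2 signals fitted with limma 3.58.1 in R 4.3.3, with 1 mean per group over all 12 arrays and a trend in the spread, on 10511 genes with a group mean above 50. A gene was called at a Benjamini-Hochberg adjusted p under 0.05. The fit was tested on simulated data in which each gene had the same spread in every group. The wider spread of the aged injured arrays was therefore not part of that test. A fold is written "at least" where a group mean under 50 was set to 50.

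The labels gave each array its age and injury group, with mice of 1 group taken as replicates. The members and gene lists were chosen with earlier results of these data known. All 10 genes are named, and those described without a test were left out of the counts after their values were seen. Of the other lists, at most 4 called genes with the largest changes were named per comparison (the values of Col1a2 in injured cord were added after they were seen). Up to 3 genes of most similar profile were taken for each of the 10. Alternatives were quantile normalization, equal medians, no cutoff, a pseudocount of 16, signals under 50 set to 50, the mean of all probes, no trend, the 2 groups compared alone, the replicate number as a block, each array left out and the study's cutoffs (signal above 50, ratio above 2). Promoter sequences and gene order came from RefSeq tables of GRCm38.p6, in which all 10 genes were found by identifier. Arrays carry no read depth, so their number limits the precision.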

Additional observations from a re-analysis of the deposited data

How the results depend on the processing

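Counts of calls cover the genes tested, 6 of the 10 between the ages after injury and for the difference between the responses and 9 elsewhere. Of 813 values of tested genes under the alternatives, 315 had a called value in the main fit; 310 of these kept call and direction, 5 lost the call and 0 changed sign. Of the uncalled values 12 passed and 17 changed sign. With the 2 groups compared alone, 0 of the 6 genes were lower in aged injured cord (2 in the main fit) and 0 of all genes called (950), while in intact cord 1 of the 9 (Bgn) was lower in aged mice and 492 of all genes were called (86). With the mean of all probes 1 of the 6 was lower in aged injured cord and 618 of all genes called, and 597 with no cutoff. Under the study's cutoffs 198, 30, 2469 and 3267 genes passed between the ages after injury, between the ages in intact cord, after injury in young mice (7156 in the main fit) and after injury in aged mice (7937), and 2 of the 9 genes were higher after injury in aged mice in place of 5. For the difference between the responses, 46 genes in the main fit became 23 with equal medians, 23 with no cutoff, 99 with signals under 50 set to 50 and 30 without a trend. After injury in aged mice 1 of the 9 genes (Ogn) was lower with equal medians.

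With 1 array left out, 1 to 3 of the 6 genes and 292 to 3069 of all genes were called between the ages after injury (3069 without aged injured replicate 2; 1 gene, Ogn, without young injured replicate 2 and 3, with Aspn, without young injured replicate 3). In intact cord it was 34 to 215 of all genes (215 without aged injured replicate 1). After injury 8 to 9 of the 9 genes and 6273 to 7651 of all genes were called in young mice. In aged mice 5 to 6 of the 9 were higher and 0 to 1 lower, with 7462 to 7961 of all genes called. For the difference between the responses it was 0 to 2 of the 6 genes and 7 to 529 of all genes. The 2 genes were Ogn and Prelp, without aged injured replicate 2.

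The values that changed sign were uncalled or untested (those of Fbln2). Between the ages after injury, Lum was 0.0506 with equal medians and -0.24 to 0.11 with 1 array left out (lowest without aged injured replicate 1, highest without aged injured replicate 2), and Fbln2 was -0.16 with the mean of all probes. Between the ages in intact cord, the values with 1 array left out were -0.0280 to 0.33 for Dcn, -0.14 to 0.15 for Ogn, -0.29 to 0.22 for Aspn, -0.40 to 0.0343 for Fbln2 and -0.14 to 0.0169 for Fbln5. Of these, Dcn, Aspn, Fbln2 and Fbln5 changed sign without aged intact replicate 2. The mean of all probes gave -0.12 for Aspn and -0.11 for Prelp there. After injury in aged mice, leaving out 1 array gave -0.15 to 0.12 for Omd and -0.00243 to 0.51 for Aspn. For the difference between the responses it gave -0.0405 to 0.31 for Lum, and the mean of all probes gave -0.0581 for Fbln2. The cause of these changes was not tested.

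Samples with the same replicate number deviated together only in part (correlations of 0.02 to 0.67 between aged and young injured arrays and -0.08 to 0.08 in the other comparisons, with 4 of 6 injured arrays closest to their own number), so the numbers were not taken to pair the samples. With the replicate block Aspn was called higher after injury in young mice (adjusted p = 0.0154 from limma), 1 of the 9 genes (Ogn, adjusted p = 0.0215) was lower after injury in aged mice, and 22 of all genes were called for the difference between the responses. Limits of the data are the 3 arrays per group, the wide spread of the aged injured arrays, the single usable probe of 6 genes and the signals of Omd, Aspn, Fbln2 and Ecm2 near the cutoff of 50.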
